A study of Mus musculus with 14 samples.

Results

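The BCL2 family decides whether the outer mitochondrial membrane stays intact, and 10 of its genes are described here in mouse kidney: Mcl1, Bcl2, Bcl2l1, Bcl2l11, Bbc3, Pmaip1, Bax, Bak1, Bid and Bmf. They were chosen by gene symbol, all 10 were found in both deposited expression tables, and they are 10 of the 23286 genes those tables list. Whole kidneys of 9-week-old mice were taken 5 h after ischemia-reperfusion (IR) injury, in which blood flow to the kidney is stopped and then restored, or after sham surgery. Control mice and mice labelled VE-PTPiKO were used, which gives 4 groups of 3 bulk RNA libraries each, with sham surgery and IR in either genotype. VE-PTP is the endothelial phosphatase, encoded by Ptprb, that removes phosphate from the angiopoietin receptor Tie2. For these mice the sources used here do not give the allele, the Cre driver, the sex, the strain or the duration of ischemia. The labels do not say that the libraries come from separate animals, so the spread behind each p-value is that of these libraries and may be technical. A further 2 single-cell samples, from kidneys of mice given vehicle or Hepta-ANG1, were not analysed here.

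Proteins of this family work by binding each other. MCL1, BCL2 and BCL-XL (encoded by Bcl2l1) keep cells alive by holding the death-promoting members in check. The BH3-only proteins BIM (Bcl2l11), PUMA (Bbc3), NOXA (Pmaip1), BID and BMF carry stress signals to them, and NOXA binds MCL1 in particular. BAX and BAK form the pores through which cytochrome c leaves the mitochondrion, after which caspases are activated. Tubule cells lost after kidney ischemia are known to die in part by this route, and MCL1 is a protein that is quickly made and quickly destroyed.

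Depth was 15427887 to 21296392 reads per library, and the 10 genes had between 66 and 8253 reads in any library. Markers of proximal tubule, loop of Henle, collecting duct, podocytes and endothelium were present in all 12 libraries. Ptprb, the gene named by the genotype, is given on a scale shared by all 12 libraries. It was at 3060.9 to 4363 reads in Control sham and 2068 to 3049.4 in VE-PTPiKO sham. It was thus still present in VE-PTPiKO, and its sham ranges lay apart only narrowly. No gene passed the limma test between genotypes in sham. After IR the genotypes overlapped in Ptprb (2039.7 to 2721 against 1314 to 2114). In 3 libraries (Control sham 2, VE-PTPiKO sham 2 and VE-PTPiKO IR 3) the nuclear RNA Malat1 took 1.02% to 1.96% of reads, against 0.327% to 0.564% in the other 9, and these libraries are followed through the results. Because whole kidney was sequenced, fewer cells of a type and less RNA per cell cannot be told apart.

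The stretch of 250 bases upstream of the RefSeq transcription start (build GRCm38.p6, mm10) is shown for 3 of the 4 members that passed the test of IR against sham in Control kidneys, Mcl1, Bcl2l1 and Bmf. The window taken is the one at the gene's start in the deposited table. None is shown for the other member that passed, Pmaip1. Capitals mark matches to any of 10 motifs searched on both strands: AP-1 (TGANTCA), CRE (TGACGTCA), FOXO (GTAAACA), the ATF4 composite (TGATGNAA), the hypoxia core (ACGTG), the GC box (GGGCGG), the CCAAT box (CCAAT), the ETS core (CCGGAAG), the SRF CArG box and the p53 decamer.
Mcl1, chr3:95658471-95658720, plus strand: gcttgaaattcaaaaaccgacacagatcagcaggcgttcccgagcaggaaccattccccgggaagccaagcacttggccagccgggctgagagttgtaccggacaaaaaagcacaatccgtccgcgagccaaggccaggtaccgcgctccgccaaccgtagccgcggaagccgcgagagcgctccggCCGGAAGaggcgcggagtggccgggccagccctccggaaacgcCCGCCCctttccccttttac
Bcl2l1, chr2:152830718-152830967, minus strand: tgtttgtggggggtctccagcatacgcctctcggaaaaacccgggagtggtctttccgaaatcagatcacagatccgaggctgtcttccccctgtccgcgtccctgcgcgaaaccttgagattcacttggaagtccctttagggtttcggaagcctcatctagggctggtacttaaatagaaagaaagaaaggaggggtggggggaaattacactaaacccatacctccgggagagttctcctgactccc
Bmf, chr2:118547600-118547849, minus strand: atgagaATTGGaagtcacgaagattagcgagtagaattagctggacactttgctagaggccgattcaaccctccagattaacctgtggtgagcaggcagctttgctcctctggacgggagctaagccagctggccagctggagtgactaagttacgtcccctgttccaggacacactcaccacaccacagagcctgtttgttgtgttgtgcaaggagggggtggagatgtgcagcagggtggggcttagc
The Mcl1 window held an ETS core 63 bases and a GC box 20 bases before the start. None of the 10 motifs lay in the Bcl2l1 window or in those of its other listed starts. The Bmf window held a CCAAT box 244 bases before the start. Of the other 2 listed Bmf starts, 1 had only CCAAT boxes in its window and 1 only a p53 decamer. Bcl2l1 and Bmf thus have several listed starts, and which start the kidney uses was not measured.

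Windows were matched for 9 of the 10 genes, all but Pmaip1, 16 windows in all. GC boxes lay in 9 of the 16 windows, from 6 genes, and in 32.7% of the 32841 windows of the same length in the table. The FOXO motif lay in 2 windows, one of Bbc3 and one of Bcl2l11, both genes known as FOXO targets, against 3.17% of all windows. The p53 decamer lay in 2 windows, of Bax and Bmf, against 7.13%, and the ETS core in 2, of Mcl1 and Bcl2l11, against 6.91%. The hypoxia core lay in windows of Bax and Bbc3 (16.6% of all windows) and the CCAAT box in 5 windows from Bbc3, Bcl2l11 and Bmf (33.9%). No AP-1, CRE, ATF4 composite or CArG match lay in any of the 16 windows, against 6.75%, 1.55%, 3.45% and 1.47% of all windows. These matches describe letters in these windows only.

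The survival genes Bcl2l1 and Mcl1 were the highest of the 10 in every group. Levels are compared between genes as jointly normalized reads per kb of the longest annotated transcript, which may differ from the region the authors counted. In Control sham kidneys Bcl2l1 was at 1593 ± 92.8 reads per kb (SD, n = 3) and Mcl1 at 1065 ± 91.5, and their ranges did not overlap. Bid followed at 468 ± 56.5 and Bax at 352 ± 44.2, the first a BH3-only protein that caspase-8 activates by cleavage and the second a pore former. Bak1 (105 ± 6.16), Pmaip1 (89.7 ± 16.0) and Bcl2l11 (72.3 ± 9.96) came next, with each overlapping its neighbour. Bmf (47.4 ± 4.97), Bbc3 (40.2 ± 6.52) and Bcl2 (37.5 ± 7.14) were lowest, and those neighbours also overlapped. On this scale Bcl2, the gene that names the family, was thus among the lowest of the 10 in sham kidney. That place rests on a transcript of 7191 bases, while the deposited location of Bcl2, chr1:106712164-106714290, is shorter. In deposited normalized reads, not divided by length, its Control sham mean (271) was above those of Bak1 (251), Pmaip1 (246), Bmf (221) and Bbc3 (73.4). The place of Bcl2 among the lower genes is therefore not resolved. The same holds for Bcl2l11, whose deposited location, chr2:128127574-128131498, is shorter than its transcript of 5036 bases. In deposited normalized reads the Control sham mean of Bcl2l11 (366) was above those of Bak1 and Pmaip1.

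After IR, Pmaip1 moved from the sixth to the fifth place in both genotypes, and its range lay above that of Bak1 in both (281 ± 67.9 against 99.8 ± 17.3 reads per kb in Control IR). Bmf had the lowest mean of the 10 in both genotypes, at 24.8 ± 3.10 reads per kb in Control IR, although in VE-PTPiKO IR it overlapped Bcl2. In VE-PTPiKO IR, Mcl1 (1936 ± 54.9) and Bcl2l1 (1987 ± 34.5) overlapped, while in the other 3 groups Bcl2l1 lay above Mcl1. Bid and Bax overlapped in Control IR and in both VE-PTPiKO groups, so their order is not resolved there.

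**Figure D1:**
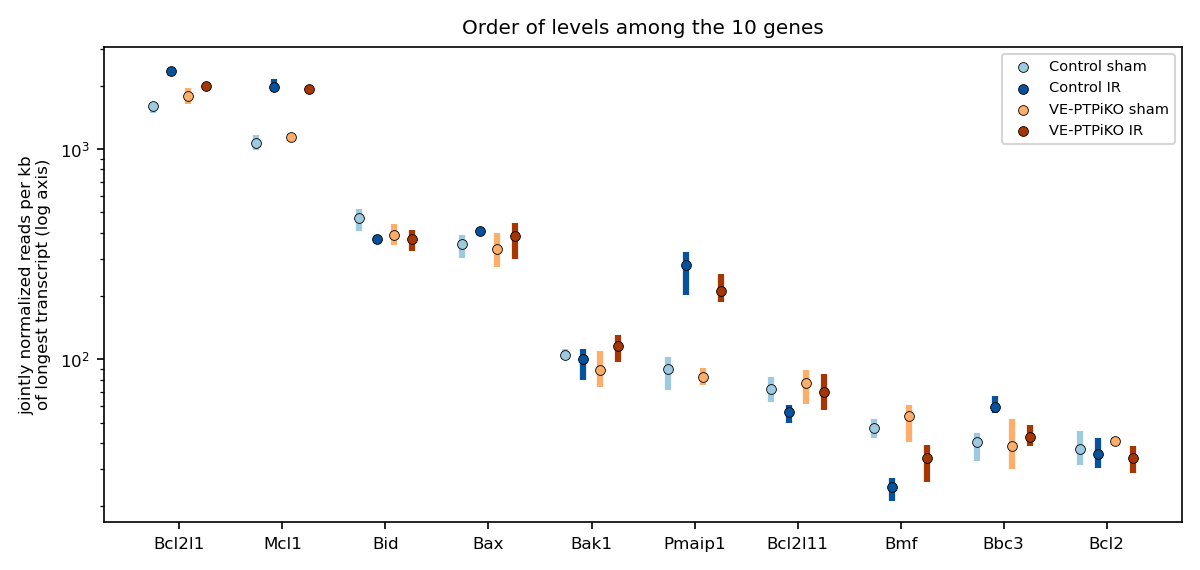
Levels of the 10 genes as jointly normalized reads per kb of the longest transcript on a log axis, in the order of Control sham; points are group means and bars run from the lowest to the highest of 3 libraries. Bcl2l1 and Mcl1 lie above the other 8 in every group, and Pmaip1 lies above Bak1 in both IR groups.

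In Control kidneys IR was followed by higher Mcl1, Bcl2l1 and Pmaip1 and lower Bmf. All values from here on are deposited normalized reads unless said otherwise, and changes are on the log2(value + 1) scale with their standard error. With limma across 16257 genes and a Benjamini-Hochberg adjusted p under 0.05, 3 of the 10 genes rose and 1 fell, where 7.48% of all genes tested rose and 4.02% fell (11.5% in all). At an unadjusted limma p under 0.05 there were 7 of the 10, against 24.2% of all genes. The authors' deposited table calls 5 of the 10, the same 4 and Bid, against 21.1% of the genes it gives an adjusted p. The median change of the 10 was 0.08 beside -0.01 for all genes. The all-gene count of 1870 was 862 without Control IR library 2, and the same 4 members passed in every setting tried.

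Among survival genes, Mcl1 (chr3:95658788-95663176 on the plus strand, GENCODE gene on mm10) was at 3409.5, 3547 and 4025 in Control sham and at 6425, 7396 and 6588 after IR. Every IR library lay above every sham library, by 1.86-fold (log2 0.89 ± 0.11, limma adjusted p = 0.000423). Bcl2l1 (chr2:152780668-152831728, minus strand) was at 4224, 3838 and 4285 in sham and 6251, 6174.5 and 5776 after IR, again without overlap (log2 0.56 ± 0.10, 1.47-fold, limma adjusted p = 0.00442). Bcl2, their low-level relative, was at 228, 328.5 and 258 in sham and 221, 249 and 305 after IR. The Bcl2 groups overlapped, and the log2 difference of -0.07 had a 95% interval from -0.46 to 0.33 (limma adjusted p = 0.877). Without sham library 2, which is rich in Malat1 and highest in Bcl2, that difference was 0.08.

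Among BH3-only genes, Pmaip1 had the largest change of the 10. It was at 279.8, 197 and 262 in sham and 559.8, 891 and 871 after IR, so that every IR library lay well above every sham library. The rise was 3.10-fold (log2 1.63 ± 0.20, limma adjusted p = 0.000392), and IR library 1 was the lowest of its group. The ID in the title of that library is far from those of the other bulk libraries, and what it stands for is not given. Bmf, which responds to loss of attachment and is held by dynein light chain in resting cells (chr2:118528757-118549687, minus strand), was at 222, 243 and 197.5 in sham and 127, 99.5 and 121 after IR. Its groups did not overlap, and it fell by 0.93 ± 0.17 on the log2 scale (1.90-fold, limma adjusted p = 0.00526).

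The other BH3-only genes did not pass the test in Control kidneys, although the groups of each did not overlap. Bbc3, a p53 target, was at 79.0, 59.7 and 81.6 in sham and 101, 103 and 123 after IR, a log2 difference of 0.57 (95% interval 0.12 to 1.03, limma adjusted p = 0.109). Bcl2l11 was at 316, 417 and 365 in sham and 307, 300.2 and 253 after IR, a difference of -0.35 (-0.68 to -0.01, limma adjusted p = 0.187). Bid was at 1257, 988 and 1166 in sham and 953.5, 931 and 855 after IR, a difference of -0.31 (-0.57 to -0.05, limma adjusted p = 0.133). Sham library 2 was the lowest of its group for Bid and Bbc3 and the highest for Bcl2l11. Without that library Bid differed by -0.41 with a limma adjusted p of 0.0293, and the authors' deposited table gives Bid an adjusted p of 0.0372. The exons of Bid share 17.7% of their length with Bcl2l13 on the opposite strand, and the sources do not say whether counting used strand.

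The pore formers showed no change past the test. Bax was at 403, 335.5 and 432 in sham and 432.5, 460.6 and 467 after IR, so that the lowest IR library lay just above the highest sham library. Its log2 difference was 0.22 (95% interval -0.07 to 0.52, limma adjusted p = 0.351). Bak1 overlapped between groups, at 267, 241.5 and 244 in sham and 193, 269.7 and 258 after IR, with a difference of -0.08 (-0.44 to 0.28, limma adjusted p = 0.840). Bak1 shares 18.2% of its exon length with Ggnbp1 on the opposite strand, and Bax 12.2% with Gm45808 on its own strand. In all, the Control groups of 8 of the 10 genes did not overlap, 5 higher and 3 lower after IR, where this held for 29.4% of all genes tested (16% higher and 13.4% lower).

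**Figure D2:**
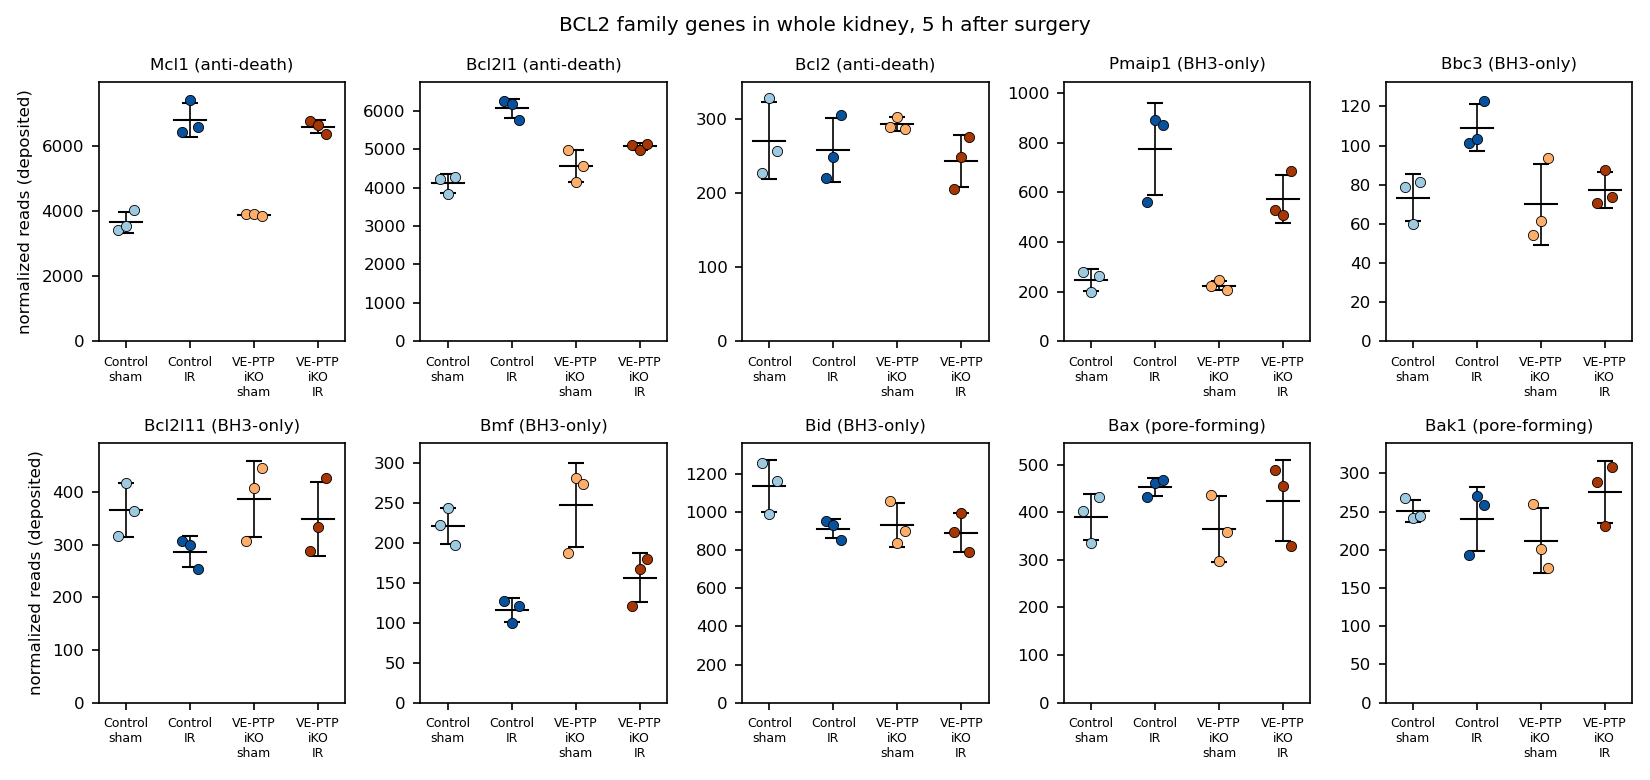
Deposited normalized reads of the 10 genes in each of the 12 libraries, by group; each axis starts at 0, points are libraries, and bars give the mean and SD of 3 libraries. Pmaip1 and Mcl1 are higher in all IR libraries of both genotypes, and Bmf is lower in both.

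In VE-PTPiKO kidneys Mcl1 and Pmaip1 rose after IR and no member fell past the test. With limma, 2 of the 10 genes rose, where 1.92% of the 16401 genes tested rose and 0.793% fell (2.71% in all). At an unadjusted limma p under 0.05 there were 3 of the 10, against 15.2% of all genes. The authors' deposited table calls 3 of the 10, Mcl1, Pmaip1 and Bmf, against 11.3%. The median change of the 10 was 0.17 beside -0.01 for all genes. The all-gene count of 445 ranged from 126 without VE-PTPiKO sham library 3 to 1925 without the Malat1-rich VE-PTPiKO IR library 3. It was 170 without sham library 2, 194 without IR library 1 and 168 without IR library 2.

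Mcl1 was at 3922, 3904 and 3851 in VE-PTPiKO sham and at 6770.2, 6627 and 6367 after IR. Its 3 sham libraries were close together (coefficient of variation 0.9%), and all IR libraries lay above them, by 1.69-fold (log2 0.76 ± 0.12, limma adjusted p = 0.0114). The adjusted p of Mcl1 was 0.0688 without sham library 2, 0.0804 without sham library 3, 0.0636 without IR library 1 and 0.0743 without IR library 2, while the change stayed between 0.74 and 0.78. Bcl2l1 was at 4994, 4152 and 4554 in sham and 5108, 4986 and 5147 after IR. Those groups overlapped, with sham library 1 at the level of the IR libraries, and the difference was 0.16 (95% interval -0.13 to 0.44, limma adjusted p = 0.629). Bcl2 was at 290.3, 304 and 287 in sham and 206, 249 and 276 after IR, lower in every IR library, with a difference of -0.28 (-0.65 to 0.10, limma adjusted p = 0.491).

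Pmaip1 was at 223, 245 and 206 in VE-PTPiKO sham and 529, 508 and 686 after IR. It rose 2.53-fold (log2 1.34 ± 0.17, limma adjusted p = 0.00489), with the highest value in the Malat1-rich IR library 3. Bmf was at 187, 280.6 and 274 in sham and 121, 168 and 179.6 after IR, without overlap, a difference of -0.66 (95% interval -1.18 to -0.13) that did not pass the test (limma adjusted p = 0.212). The authors' deposited table gives Bmf an adjusted p of 0.0367 here, and limma with library weights gave 0.0167. Sham library 1 was well below the other sham libraries for Bmf.

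The remaining VE-PTPiKO groups overlapped. Bbc3 was at 54.4, 61.5 and 93.7 in sham and 70.5, 87.7 and 73.6 after IR, a difference of 0.18 (95% interval -0.41 to 0.77). Bcl2l11 was at 307, 408 and 447 in sham and 288, 333.5 and 426 after IR, a difference of -0.15 (-0.61 to 0.31). Bid was at 1059.8, 836 and 901 in sham and 898, 993 and 789 after IR, a difference of -0.06 (-0.40 to 0.28). The pore formers spread as widely within groups as between them. Bax was at 436, 298 and 358 in sham and 488, 456 and 329 after IR (0.22, interval -0.25 to 0.68), and Bak1 at 259.8, 200.4 and 176 in sham and 288, 231 and 308 after IR (0.39, interval -0.07 to 0.84). In all, the VE-PTPiKO groups of 4 of the 10 genes did not overlap, 2 higher and 2 lower after IR, against 20.6% of all genes tested (10.6% higher and 10% lower).

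**Figure D3:**
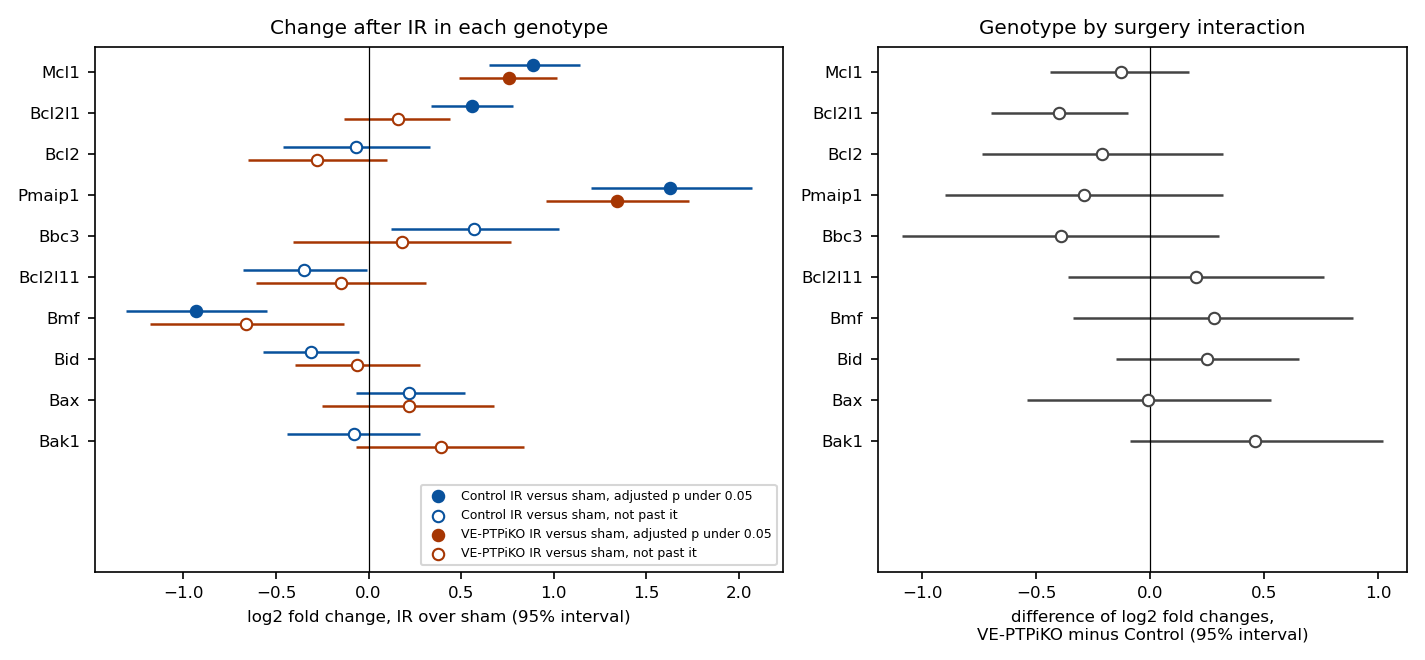
Left, log2 fold change of IR over sham with its 95% interval for the 10 genes in Control (blue) and VE-PTPiKO (brown) kidneys, filled where the limma adjusted p is under 0.05; right, the difference between the genotypes' changes with its 95% interval. Only the Bcl2l1 interval on the right lies wholly below 0, and no interaction passed the adjusted threshold.

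None of the 10 genes differed between genotypes past the test. In sham kidneys and after IR, limma on all 12 libraries called 0 of 16339 genes (0% in each), with 267 and 709 genes at an unadjusted p under 0.05 (1.63% and 4.34%), edgeR called 0 in each and DESeq2 called 1 in each. Of the 10 members, 0 had an unadjusted p under 0.05 in sham and 1, Bcl2l1, had after IR. Differences in sham ran from -0.27 for Bid (95% interval -0.55 to 0.01) to 0.16 for Bcl2l1 (-0.05 to 0.38) and Bmf (-0.28 to 0.60), and all 10 genes overlapped, where 4.87% of all genes did not (2.5% higher and 2.36% lower). Mcl1 differed by 0.11 (-0.11 to 0.32) in sham and by -0.03 (-0.24 to 0.19) after IR.

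After IR, Bcl2l1 was lower in every VE-PTPiKO library (4986 to 5147) than in any Control library (5776 to 6251). The difference was -0.24 (95% interval -0.45 to -0.02, limma adjusted p = 1). Bbc3 showed the same separation, at 70.5 to 87.7 against 101 to 123, with a difference of -0.47 (-0.96 to 0.02, limma adjusted p = 1). These 2 of the 10 genes were lower without overlap, against 5.19% of all genes, and none was higher without overlap, against 3.97% (9.16% in all). Pmaip1 differed by -0.39 (-0.82 to 0.04) and Bmf by 0.43 (0.00 to 0.87), each with overlapping groups. The deposited values quoted here come from tables scaled separately, and each library's scale there differs from the scale shared by all 12 libraries by 1.0% at most.

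The change after IR was also compared between genotypes directly, as an interaction. For Bcl2l1 it was -0.40 ± 0.14 (95% interval -0.70 to -0.10), a smaller estimate in VE-PTPiKO than in Control, with a limma adjusted p of 0.999. Over 23 alternative settings this value stayed between -0.47 and -0.34, and its adjusted p between 0.181 and 1. No gene passed the interaction test with limma, edgeR or DESeq2, and 432 genes (2.64%) had an unadjusted p under 0.05. For Mcl1 (-0.13, interval -0.44 to 0.17), Pmaip1 (-0.29, -0.90 to 0.32) and Bmf (0.28, -0.34 to 0.89) the intervals leave room for differences of either sign.

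The balance between members was described as ratios within each library, with no test. Mcl1 over Pmaip1, the survival protein gene over the gene of its antagonist NOXA, was 15.2 ± 2.92 (SD, n = 3) in Control sham and 9.12 ± 2.08 after IR. In VE-PTPiKO it was 17.4 ± 1.41 in sham and 11.7 ± 2.11 after IR. Both genotypes were lower after IR without overlap, Pmaip1 having the larger fold change of the pair. Pmaip1 over Bmf, both BH3-only, went from 1.13 ± 0.281 (SD, n = 3) to 6.85 ± 2.30 in Control and from 0.938 ± 0.226 to 3.73 ± 0.671 in VE-PTPiKO.

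Pmaip1 made up 12.4% ± 1.16 of the summed BH3-only reads per kb in Control sham and 35.0% ± 6.46 after IR, and 13.0% ± 1.57 and 29.0% ± 4.56 in VE-PTPiKO. Bid made up 65.1% ± 1.99 of that sum in Control sham and 47.2% ± 5.12 after IR. The 5 BH3-only genes together were at 718 ± 65.5 reads per kb in Control sham and 797 ± 54.6 after IR, with overlap. The 3 survival genes together went from 2696 ± 149 to 4353 ± 192. Their ratio was therefore higher after IR in Control, 3.44, 3.97 and 3.90 in sham against 5.84, 5.42 and 5.16. In VE-PTPiKO the ratio was 4.81, 4.58 and 4.54 in sham and 5.81, 5.23 and 5.26 after IR, again without overlap. Both sums were higher after IR there without overlap. The BH3-only sum went from 641 ± 20.7 to 729 ± 34.9 and the survival sum from 2975 ± 160 to 3958 ± 41.6. These sums are weighted toward Bcl2l1, Mcl1 and Bid, which hold most of the reads, and they say nothing of protein.

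**Figure D4:**
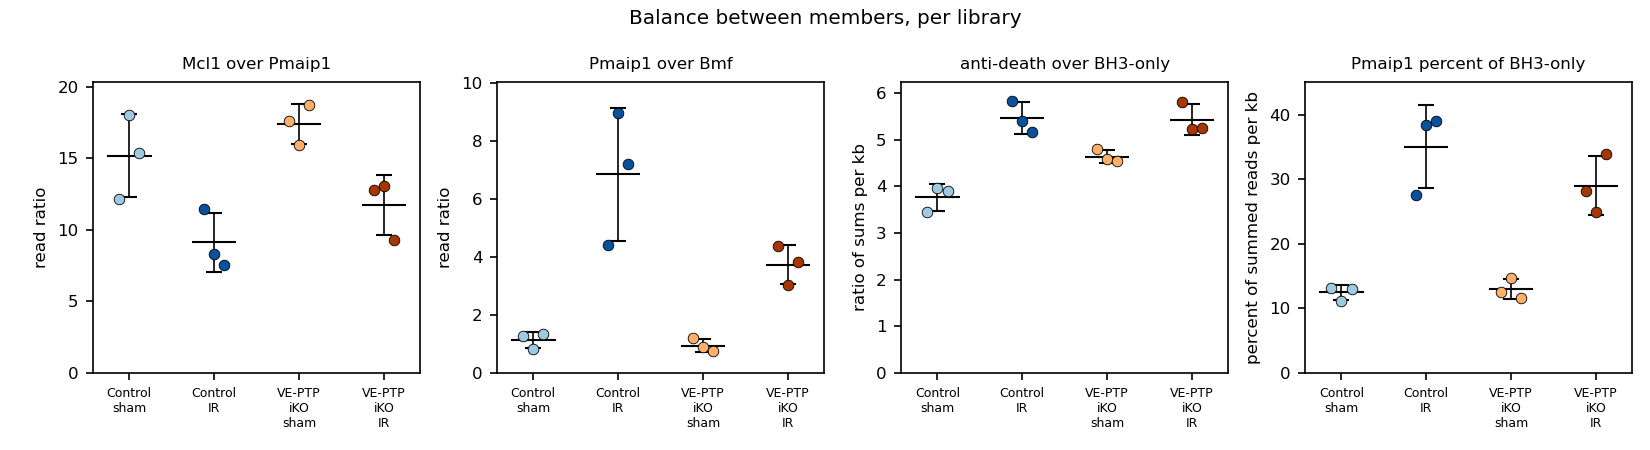
Ratios between members in each of the 12 libraries, with axes from 0; points are libraries and bars give the mean and SD of 3. Mcl1 over Pmaip1 is lower and the other quantities are higher after IR in both genotypes, without overlap between sham and IR.

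The 10 genes did not vary alike within groups. In all 3 libraries rich in Malat1, Bcl2 and Bmf were the highest of their group and Bax and Bid the lowest. Bax was 0.31 to 0.52 below the mean of the other 2 libraries on the log2 scale and Bid 0.23 to 0.29 below, while Bmf was 0.21 to 0.31 above and Bcl2 0.07 to 0.44 above. Mcl1 stayed within 0.07 of the others. The longest transcripts were 7191 bases for Bcl2, 4642 for Bmf, 2415 for Bid and 1100 for Bax. Bcl2l11 (5036 bases) was at 0.12 to 0.46 to the other 2 libraries and highest in 2 of the 3. Bbc3 (1814) was at -0.43 to -0.10 and lowest in 1. Pmaip1 (2727 bases, -0.46 to 0.40), Bcl2l1 (2568, -0.20 to 0.03) and Bak1 (2387, -0.12 to 0.25) lay on either side. Malat1 moved with Bcl2, Bmf, Bid and Bax. Its part in the results of these genes, and that of transcript length, was not tested. In fits without those libraries (1 fewer in Control, 2 fewer in VE-PTPiKO), Mcl1, Bcl2l1, Pmaip1 and Bmf kept their calls in Control, and Mcl1 and Pmaip1 kept theirs in VE-PTPiKO.

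Over the 12 libraries, Pearson's r on log2 values was 0.94 between Mcl1 and Pmaip1, 0.85 between Mcl1 and Bcl2l1, and -0.85 between Mcl1 and Bmf, and each of these 4 genes differs between sham and IR in Control. Bcl2l11 and Bax were at -0.85, and Bmf and Bax at -0.77. These are descriptions over libraries that share group and library quality. The gene most alike to each member was sought among genes with a mean of at least 50, leaving out predicted and clone-named genes. It was Tmbim1 for Mcl1 (r = 0.989), Homer1 for Pmaip1 (0.973), Cldnd1 for Bcl2l1 (0.951), Ncoa4 for Bmf (0.974) and Hes1 for Bbc3 (0.893). For Bax it was Psma1 (0.974), for Bid Mettl7a2 (0.960), for Bcl2 Pxdn (0.955), for Bcl2l11 Mier3 (0.925) and for Bak1 Elp6 (0.868).

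Of 68 other genes of the pathway, in 5 lists, 66 could be tested in Control kidneys, and 12 rose and 3 fell with limma (7.48% and 4.02% of all genes). Their median change was 0.00. Of the 5 lists, known transcriptional regulators of the family had the highest median, 0.95, and 6 of 12 rose and none fell. The lists were chosen with earlier results of these data known, so their counts describe the genes listed and are no test of the pathway. Jun, a subunit of AP-1, went from 1593 ± 152 (SD, n = 3) to 4649 ± 378 (log2 1.55 ± 0.11, limma adjusted p = 1.91e-05). Ddit3, encoding the stress factor CHOP, went from 192 ± 24.1 to 491 ± 45.2 (1.35 ± 0.15, limma adjusted p = 0.000188). Atf4, which acts upstream of it, rose by 0.99 ± 0.14, Trib3, a target of both, by 1.71 ± 0.28, Rela, a subunit of NF-kB, by 0.98 ± 0.11, and Mdm2, which directs p53 to degradation, by 0.96 ± 0.11. Trp53 itself differed by 0.22 ± 0.12 (limma adjusted p = 0.328), and Foxo3 by -0.30 ± 0.12 (0.149).

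Among binding partners 1 of 12 rose, the co-chaperone Bag3 (1.51 ± 0.12, limma adjusted p = 3.4e-05). Death receptor and necroptosis genes had 3 of 12 higher and none lower: Tnfrsf1a (0.72 ± 0.11), the caspase-8 inhibitor Cflar (0.72 ± 0.11) and Ripk3 (1.09 ± 0.30). Of the 17 apoptosome and caspase genes, the inhibitor Birc3 (0.93 ± 0.15) and the apoptosome scaffold Apaf1 (0.68 ± 0.18) rose and Casp2 fell by 0.56 ± 0.15. The other BCL2 family genes had 0 higher and 2 lower of 13 tested: Bnip3l, a mitophagy receptor, fell by 0.44 ± 0.11, and Hrk, a BH3-only gene, had 5 to 12 reads per library in sham and 1 or 2 after IR (limma adjusted p = 0.0338). The calls of Apaf1, Casp2, Ripk3, Bnip3l and Hrk were lost in several fits that left out 1 library. Leaving out Control sham 1, sham 3 or IR 2 ended all 5 calls, and IR 3 all but that of Ripk3. Leaving out IR 1 ended those of Ripk3, Bnip3l and Hrk, and sham 2 those of Casp2 and Ripk3. The limma adjusted p rose up to 0.149, 0.136, 0.207, 0.162 and 0.136 in that order. The changes kept their sign, at 0.53 to 0.86, -0.66 to -0.48, 0.91 to 1.34, -0.54 to -0.40 and -2.15 to -1.62. The authors' deposited table, on all Control libraries, calls Apaf1 (adjusted p = 0.000943), Casp2 (0.00174), Ripk3 (0.00907) and Bnip3l (0.000702). It gives Hrk no adjusted p.

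In VE-PTPiKO kidneys 6 of the 66 genes tested rose and 1 fell (1.92% and 0.793% of all genes), with a median of 0.05. Ddit3 (1.51 ± 0.20), Jun (from 1718 ± 401 to 3506 ± 365 reads, SD, n = 3), Atf4 (0.95 ± 0.16), Bag3 (0.86 ± 0.16), Mdm2 (0.85 ± 0.12) and Rela (0.64 ± 0.13) rose, and all of these had also risen in Control. Hrk had 8 to 12 reads per library in sham and 0 or 1 after IR (limma adjusted p = 0.0345). Ddit3 kept its call in each leave-one-out fit. Mdm2 had an adjusted p of 0.0596 without sham library 3, the call of Atf4 ended without sham 2, sham 3, IR 1 or IR 2 (adjusted p up to 0.101), and that of Jun without sham 1, sham 2 or IR 2 (up to 0.0870). Rela, Bag3 and Hrk each lost the call without any 1 VE-PTPiKO library other than IR 3, with adjusted p up to 0.176, 0.127 and 0.186. Birc3 (0.67 ± 0.15, limma adjusted p = 0.0531) and Tnfrsf1a (0.59 ± 0.13, 0.0578) lay just outside the threshold, and Cflar did not pass it (0.59 ± 0.17, 0.124). The authors' deposited table calls Birc3 (adjusted p = 0.000144), Tnfrsf1a (0.000127) and Cflar (0.00708) there. No pathway gene differed between genotypes past the test. Bag3 was lower in VE-PTPiKO than in Control after IR without overlap (-0.55, 95% interval -0.85 to -0.25, limma adjusted p = 1), as was Rela (-0.34, -0.57 to -0.10, limma adjusted p = 1).

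**Figure D5:**
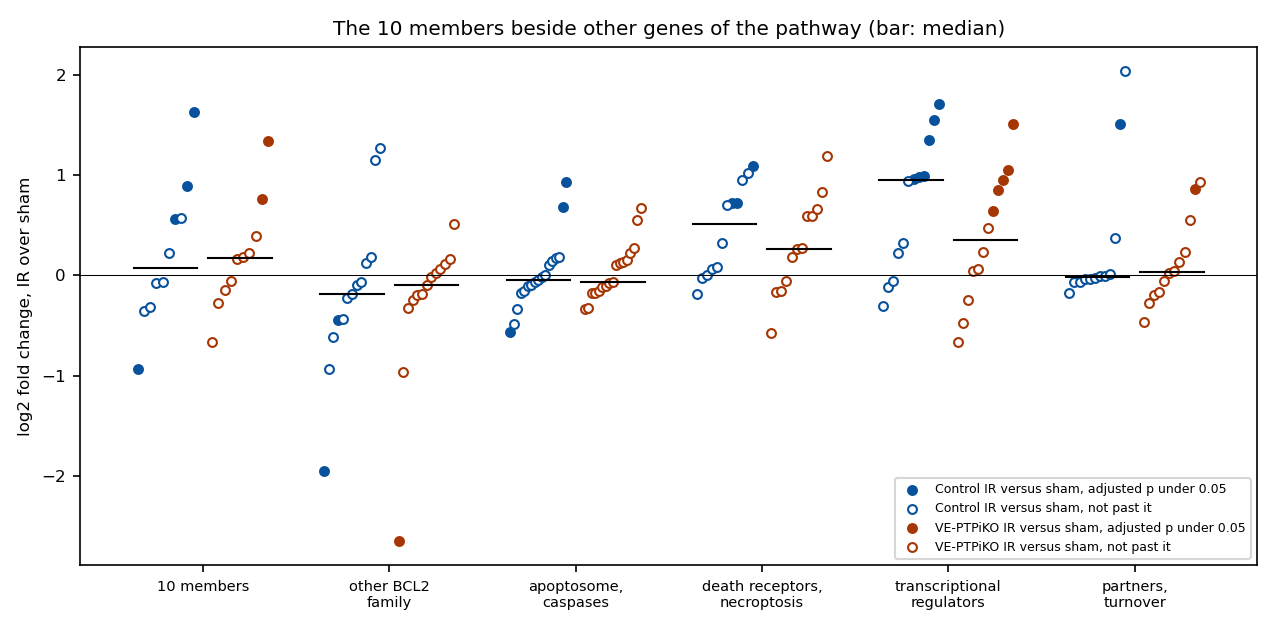
Log2 fold change of IR over sham for the 10 genes and for 5 lists of other pathway genes, in Control (blue) and VE-PTPiKO (brown) kidneys; each point is a gene, filled where the limma adjusted p is under 0.05, and black bars are list medians. The transcriptional regulators have the highest median in both genotypes, 0.95 and 0.35.

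Markers of other cells moved with IR beside these genes. All 3 red cell markers rose in Control, their summed level going from 997 to 3063 in sham to 5431 to 9806 after IR, and macrophage markers had 2 of 6 higher, with sums of 1687 to 1815 in sham and 2110.5 to 2229 after IR. Neutrophil markers had 0 of 7 past the test, with sums of 114 to 249 in sham and 192 to 626 after IR. In VE-PTPiKO 0 of 3 red cell markers (1238 to 2303 and 1941 to 9042), 1 of 6 macrophage markers (1684 to 1840.3 and 1891 to 2149) and 0 of 7 neutrophil markers (158 to 201 and 185 to 375) passed. The log2 changes of the 3 red cell markers were still 1.38 to 1.72 there, against 1.83 to 2.05 in Control. All 3 had an unadjusted limma p under 0.05 in VE-PTPiKO, with a lowest limma adjusted p of 0.0675. The authors' deposited table calls Alas2 (adjusted p = 0.000154) and Hba-a1 (0.0206) there, but not Hbb-bs (0.0615). Endothelial markers had 1 of 6 higher in Control, Cdh5 (VE-cadherin), and 0 of 6 past the test in VE-PTPiKO. Their sums were 8155 to 8999.6 in Control sham, 8339 to 9943 in Control IR, 8979.6 to 9887 in VE-PTPiKO sham and 9316 to 10360.4 in VE-PTPiKO IR. The 5 proximal tubule markers had no call in either genotype. The part of these cells in the changes of Mcl1, Bcl2l1, Pmaip1 and Bmf was not tested.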

How the data were processed

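Whole-kidney RNA libraries were described in 4 groups of 3, taken from the labels. Per the submitters' processing notes, the authors used FastQC, STAR, HTSeq, DESeq2 and the mm10 build; versions and strand settings are not given in the sources used here. The values the authors deposited are a signal, gene read counts divided by 1 size factor per library and table, and multiplying by the size factor recovered from the smallest steps gave whole reads for 100% of values within 0.02. The deposited log2 fold changes, with their p-value columns, are the authors' own comparison of IR with sham, and were used only where named.

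A total of 182 repeated gene IDs with identical values were kept once. IR was compared with sham within each table by limma 3.58.1 (R 4.3.3) with a mean trend, after adding a pseudocount of 1 and taking log2. Genes averaging under 1 were left out, with Benjamini-Hochberg adjustment over all genes tested and a threshold of 0.05. Genotypes and the interaction were fitted on recovered reads of all 12 libraries, put on 1 scale by median-of-ratios size factors from 14828 genes. Intervals are 95%. The recovered reads were also tested with edgeR 4.0.16 and DESeq2 1.42.0: counts stand in the closing section. The fits were tested on simulated data. Levels per kb used GENCODE transcripts of GRCm38. No pair of libraries agreed within sampling noise (lowest chi-square per degree of freedom 10.7). Deviations from group means correlated at 0.447, 0.429 and 0.155 between same-numbered Control and VE-PTPiKO sham libraries. Differently numbered sham pairs ran from -0.511 to 0.17, the highest being Control sham 3 with VE-PTPiKO sham 1. The pair at 0.429 is of Malat1-rich libraries. Control sham 2 and VE-PTPiKO IR 3, both Malat1-rich but differently numbered, were at 0.722. No label says that title numbers pair libraries, and whether they do was not tested. Genes named were the 10 members, every pathway gene past the threshold and the gene most alike to each member. The members and lists were chosen with earlier results of these data known.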

Additional observations from a re-analysis of the deposited data

How the results depend on the processing

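Over 1050 combinations of a member, a comparison and an alternative setting, 1008 kept direction and side of the threshold, 4 lost the call, 4 gained one and 34 changed sign. The 4 lost calls are Mcl1 in VE-PTPiKO, and the 4 gained are Bid in Control and Bmf in VE-PTPiKO. The count of genes called in VE-PTPiKO was 445, against 1013 with DESeq2, 3879 with library weights, 829 with a correction for transcript length, 1019 in 1 model of 12 libraries, 853 without the 3 libraries highest in Malat1 and 126 to 1925 leaving out 1 library. In Control it was 862 to 2010 leaving out 1 library. Members called in VE-PTPiKO were 1 to 2 leaving out 1 library. Genotype calls were 1 with DESeq2 in sham and after IR, 1 in sham without the 3 libraries highest in Malat1, and 0 to 1 leaving out 1 library in sham, after IR and for the interaction. The cause of each difference was not tested. With edgeR the counts in both genotypes stayed within 1.5 times of those with limma.

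The values that changed sign were as follows. For Bcl2, Control IR versus sham was 0.08 without the 3 libraries highest in Malat1 and -0.19 to 0.08 leaving out 1 library. For Bak1, Control IR versus sham was -0.17 to 0.07 leaving out 1 library. For Bid, VE-PTPiKO IR versus sham was 0.07 with library weights and -0.14 to 0.04 leaving out 1 library. In VE-PTPiKO versus Control in sham, Bbc3 was 0.03 with library weights and -0.31 to 0.08 leaving out 1 library, Bcl2l11 was -0.02 to 0.25 and Bax -0.23 to 0.04 leaving out 1 library. In VE-PTPiKO versus Control after IR, Mcl1 was -0.07 to 0.04 and Bcl2 -0.17 to 0.06 leaving out 1 library, Bid was 0.07 with library weights, 0.07 without the 3 libraries highest in Malat1 and -0.10 to 0.07 leaving out 1 library, and Bax was 0.02, 0.07 and -0.21 to 0.07 in the same settings. In the genotype by surgery interaction, Bcl2l11 was -0.05 with library weights and -0.01 without the 3 libraries, and Bax was 0.02 with TMM, 0.01 with edgeR, 0.00 with DESeq2, 0.18 with library weights, 0.14 without the 3 libraries and -0.14 to 0.17 leaving out 1 library.

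Same-numbered libraries did not all correlate above 0.1 between sham and IR in Control (0.183, -0.044 and -0.111) or in VE-PTPiKO (0.568, -0.38 and 0.193), nor between genotypes after IR (0.242, -0.028 and 0.262), but did between genotypes in sham, where the replicate block changed no call (0 genes with and without it). With the replicate block, 1805 genes were called in Control and 604 in VE-PTPiKO, 4 and 2 members kept their calls, and the call of Hrk was lost in both genotypes (adjusted p 0.0525 and 0.0514). With 3 libraries a group, changes well under the width of the intervals could not be resolved.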
